A study of Mus musculus with 6 samples.

Results

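The genes described here are 41 components of the Wnt pathway, taken by name and not by their values from a table of 22564 features. The choice was made with earlier results of these data known. They comprise 10 Frizzled receptors, the LRP co-receptors Lrp5 and Lrp6, the alternative receptors Ror1, Ror2 and Ryk, 3 LGR receptors, 10 secreted antagonists, 5 feedback genes, 4 TCF/LEF factors, and beta-catenin (Ctnnb1) with its destruction complex genes Apc, Axin1 and Gsk3b. All 41 had a row in the table. RNA had been sequenced from 6 mouse foreguts, each microdissected from a single embryo of mixed strain and holding endoderm together with mesoderm. The 3 mutants were Gli2-/-;Gli3-/- embryos of 19, 22 and 21 somites (numbers 1, 2 and 3), which lack both copies of the transcription factors Gli2 and Gli3, effectors of the Hedgehog (HH) signal. The 3 controls were Gli2+/-;Gli3+/- littermates of 19, 24 and 21 somites. Controls thus also carried a mutant copy of each gene, no wild type was included, and the labels name no cell type to which the loss was limited. The question was how Wnt reception and response genes stood when HH signalling through Gli2 and Gli3 was lost.

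Wnt ligands bind Frizzled receptors together with an LRP co-receptor, which stops the destruction complex from degrading beta-catenin. Beta-catenin then enters the nucleus and works with TCF/LEF factors on target genes, several of which encode feedback inhibitors. R-spondins bind LGR receptors and protect Frizzleds from the ubiquitin ligases Rnf43 and Znrf3, whereas secreted Frizzled-related proteins and Dickkopf proteins block ligands or co-receptors. In the foregut, mesenchymal Wnt ligands act through beta-catenin to specify the lung progenitors of the ventral endoderm.

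Values are TPM, each transcript's share of its library corrected for transcript length, so levels may be set beside each other between genes. TPM keeps no read depth, and the precision of a value rests on the spread between 3 embryos. Values of single libraries are always listed in the order of the library numbers 1, 2 and 3. Mutants were compared with controls by limma on log2(TPM + 1) for the 14606 genes whose mean reached 1 TPM. A gene was called at a Benjamini-Hochberg adjusted p up to 0.1 if its log2 fold change was also 1 or more in size. Of the 41 genes, 35 passed the filter. Fzd9, Lgr6, Sfrp4, Wif1, Dkk2 and Notum did not. The HH target Gli1 stood at 37.8, 21.6 and 28.6 TPM in the controls against 4.49, 2.30 and 1.44 TPM in the mutants, with no overlap (limma adjusted p = 0.0722, and 0.0398 to 0.475 with a library left out). The HH targets Ptch1 (691 ± 169 against 289 ± 80 TPM) and Hhip (10.96 ± 3.13 against 1.60 ± 0.32 TPM, SD, n = 3) did not overlap either. Neither was called (limma adjusted p = 0.592 and 0.128), but both were with the replicate number as a block (0.0659 and 0.0647). A gene without a call is thus not shown to be unchanged. Gli2 (21.1 ± 4.4 against 27.5 ± 9.5 TPM) and Gli3 (106 ± 25 against 74.95 ± 21.8 TPM, SD, n = 3) overlapped between genotypes, and a value for the whole gene does not check an allele. Features named by an accession in place of a symbol took from 23.5% to 43.9% of TPM, so values were also rescaled to features with a symbol. Summed markers of gut tube mesenchyme (10 genes) ranged from 407 to 520 TPM in controls and from 72.1 to 141 TPM in mutants, and all 9 of them that were tested had a lower mean in mutants. Those of septum transversum mesenchyme and mesothelium (11 genes, 140 to 167 and 195 to 212 TPM), pharyngeal mesoderm (10 genes, 84.0 to 123 and 144 to 179 TPM), endothelium (9 genes, 136 to 181 and 211 to 308 TPM) and somite (8 genes, 12.6 to 42.5 and 59.8 to 108 TPM) were higher in every mutant. In the order of these lists, 8 of 9, 6 of 9, 9 of 9 and 6 of 6 genes tested had a higher mean log2 level in mutants. The septum transversum and pharyngeal lists each held 1 gene with every mutant below every control. Separately, both lists include Lhx2, which thus enters both sums. Summed endoderm markers overlapped (8 genes, 647 to 996 and 729 to 934 TPM). None of these markers was at 0 in all libraries. From these same foreguts the paper reports Osr1, Tbx4, Tbx5, Foxf1 and Foxf2 as lower in mutants. It reports Tbx18, Lhx2 and Wt1 as higher. These genes are in the lists above, so the sums partly restate that result and are not independent of it. The part of these marker differences in the values below was not tested, and in bulk tissue fewer cells of a type and less RNA per cell cannot be told apart.

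Promoter sequences from RefSeq (build GRCm38.p6, the mm10 genome) were matched by symbol for 27 of the 41 genes. Shown here are the 250 bases before the RefSeq start site of the receptors Fzd7 and Fzd4, 2 of the genes whose genotype difference had an unadjusted p under 0.05. Capitals mark matches on either strand to the TCF/LEF letters CTTTG followed by AA, AT, TA or TT, or to CCACCCA, the core of the Gli-binding letters GACCACCCA.
Fzd7, chr1:59481897-59482146, plus strand: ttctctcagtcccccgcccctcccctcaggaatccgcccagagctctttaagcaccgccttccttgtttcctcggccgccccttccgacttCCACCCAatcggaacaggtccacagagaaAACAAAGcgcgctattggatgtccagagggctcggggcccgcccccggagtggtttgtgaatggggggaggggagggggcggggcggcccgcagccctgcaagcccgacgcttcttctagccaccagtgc
Fzd4, chr7:89404116-89404365, plus strand: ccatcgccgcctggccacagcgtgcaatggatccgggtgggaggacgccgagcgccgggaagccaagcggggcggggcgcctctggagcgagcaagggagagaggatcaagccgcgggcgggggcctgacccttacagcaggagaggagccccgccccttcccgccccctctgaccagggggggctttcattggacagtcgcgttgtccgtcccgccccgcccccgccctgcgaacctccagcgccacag
The Fzd7 stretch held a TCF/LEF match on the minus strand that begins 130 bases before the start site and a Gli core match on the plus strand that begins 159 bases before it. The Fzd4 stretch held neither. RefSeq and GENCODE place the start sites differently, and of the 250 bases 0 lie in GENCODE exons of the gene for Fzd7 and 11 for Fzd4. For the antagonist Frzb 229 of the 250 do, so its stretch is not shown. Over all 32851 promoters of 300 bases in the table, 16.9% held a TCF/LEF match, 9.3% the Gli core and 0.253% the whole Gli letters, which contain the core. Of 34 promoters of the 27 genes, 4 held a TCF/LEF match (Fzd7, Lef1, Dkk1 and Tcf7l2), 2 the Gli core (Fzd7 and Ror2) and 0 the whole Gli letters. A match describes letters and does not show that a factor binds.

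The Wnt genes spanned a wide range of levels in the foregut. Beta-catenin had the highest mean (783 TPM over the 6 libraries), followed by the antagonist Sfrp1 (231 TPM) and the kinase Gsk3b (140 TPM). Another 20 genes had means from 10 to under 100 TPM and 12 from 1 to under 10 TPM. Among receptors Fzd7 stood highest at 80.5 TPM, ahead of Lrp6 at 61.3 TPM and Fzd3 at 54.8 TPM, and neighbours in this order overlapped in their library values. The lowest were Wif1, a secreted ligand-binding antagonist (0.0717 TPM), Notum, an enzyme that removes the lipid from Wnt ligands (0.107 TPM), Fzd9 (0.125 TPM) and Lgr6 (0.22 TPM).

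**Figure D1:**
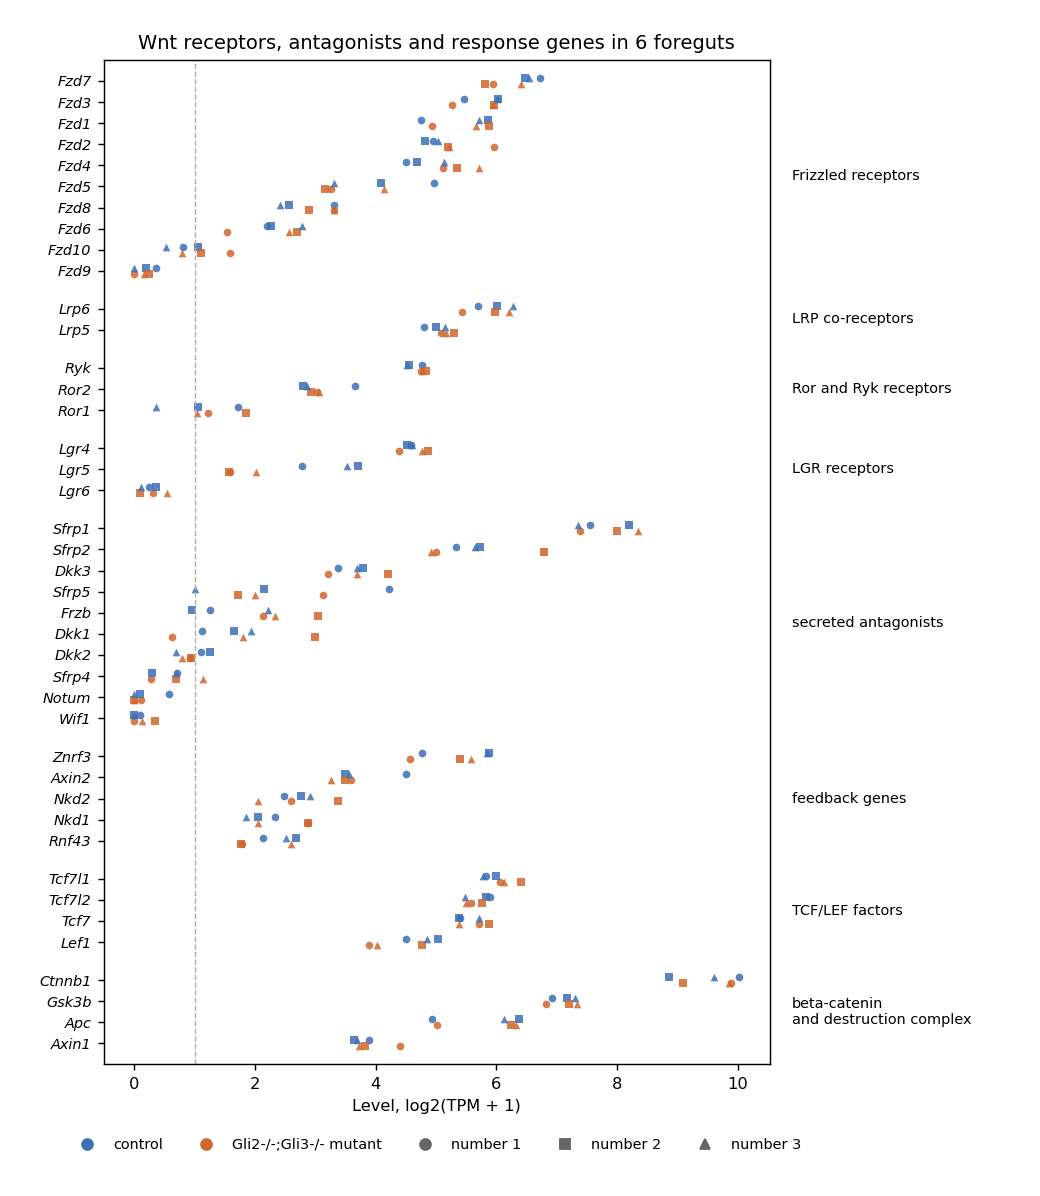
Level of each of the 41 Wnt genes as log2(TPM + 1) in 3 control (blue) and 3 mutant (orange) foreguts, grouped by class and ordered by mean level, with symbols for the library number and a dashed line at 1 TPM. Most genes have overlapping blue and orange points, and Lgr5 has all 3 mutants (1.98 to 3.07 TPM) below all 3 controls (5.86 to 12.09 TPM).

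None of the 35 genes was called between genotypes by limma, and none with the replicate number as a block. Over all genes tested, 0.0411% were called without the block (0.0274% lower and 0.0137% higher) and 0.205% with it. At an unadjusted p under 0.05 there were 4 Wnt genes, Lgr5 and Fzd7 lower and Fzd4 and Frzb higher, where 4.09% of all genes tested reached that level (1.01% lower and 3.07% higher). With the block there were 8, those 4 together with Fzd2 and Tcf7l1 (higher) and Lef1 and Znrf3 (lower), where the share of all genes was 9.79% (1.86% lower and 7.94% higher). The count was 1 without control 1, 1 without control 2 and 2 without both libraries numbered 1. Groups did not overlap for 4 of the 35, Lgr5 and Fzd7 below and Fzd2 and Tcf7l1 above, where 8.36% of all genes did not overlap (1.68% below and 6.68% above). In all 3 same-numbered pairs the mutant was lower for 6 of the 35 and higher for 8, where the shares of all genes were 6.37% and 25.7%. The median log2 fold change was 0.05 over the 35 and 0.11 over all genes tested. Median-of-ratios scaling, which sets libraries to a common median gene, took these medians to -0.088 and -0.02, so differences are also given relative to the median of all genes. The estimates of Fzd1, Lgr4, Sfrp2, Dkk3, Ctnnb1 and Apc, all near 0, had the opposite sign after that scaling, after quantile normalization and after rescaling to features with a symbol.

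**Figure D2:**
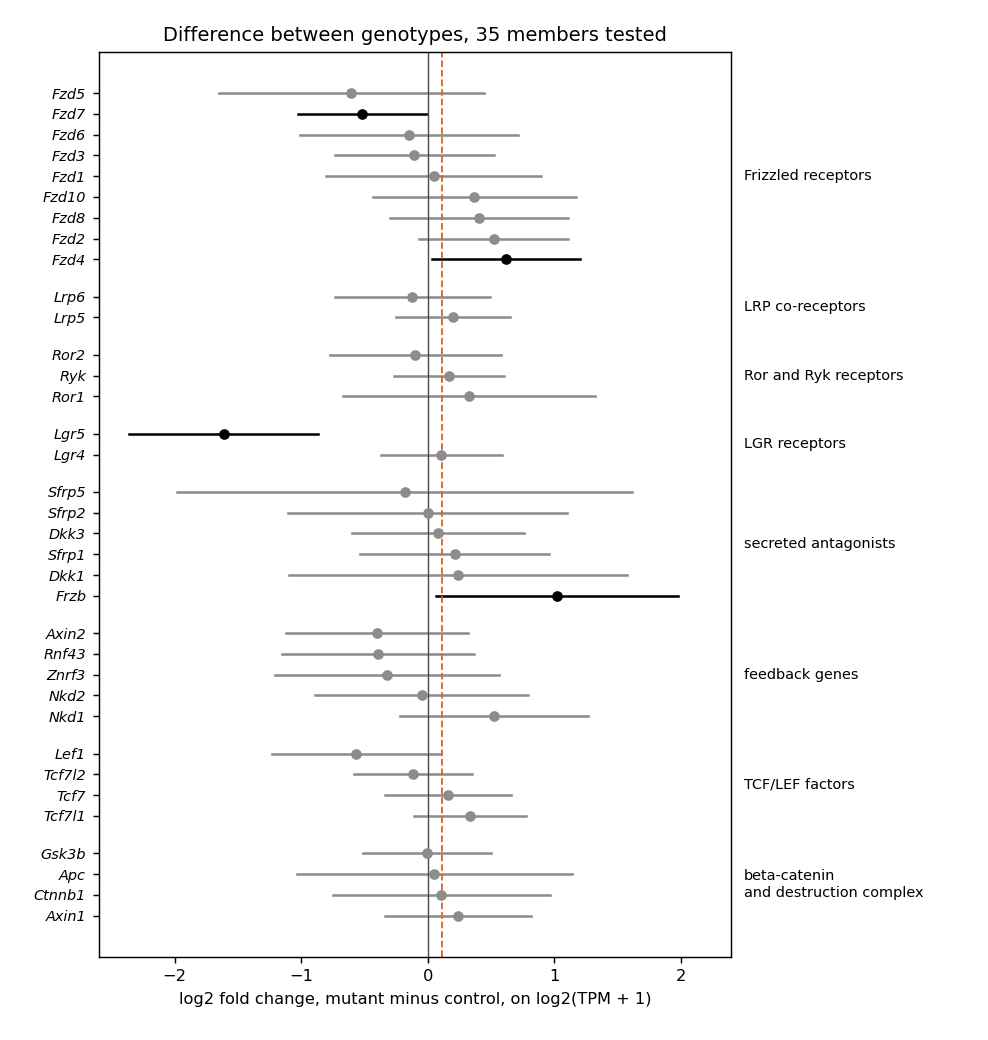
Log2 fold change, mutant minus control on log2(TPM + 1), for the 35 Wnt genes tested, with 95% intervals from limma, solid line at 0 and dashed line at the median of all genes tested (0.11). Black marks the 4 genes with an unadjusted p under 0.05. The interval of Lgr5 (-2.36 to -0.87) lies farthest from 0, and the other 3 come close to it.

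Among the LGR receptors, Lgr5 separated the genotypes and Lgr4 did not. Lgr5 (chromosome 10, 115450311 to 115587780, mm10) encodes an R-spondin receptor that is itself a Wnt target and marks stem cells of the adult intestine. Its levels were 5.86, 12.09 and 10.57 TPM in the controls against 1.99, 1.98 and 3.07 TPM in the mutants. Every mutant lay below every control, with a gap from 3.07 to 5.86 TPM. The means were 9.51 ± 3.25 TPM in controls and 2.35 ± 0.63 TPM in mutants (SD, n = 3), 4.05-fold lower in mutants. On log2(TPM + 1) the difference was -1.61 ± 0.32 (SE), or -1.73 relative to the median of all genes, with an unadjusted p = 0.00112 and an adjusted p = 0.38 in limma. The adjusted p was 0.155 with the replicate block. Under the alternatives it ran from 0.068 to 1.00, and the 2 values under 0.1 came with the block after rescaling to features with a gene symbol (0.068) and with 1 factor of unwanted variation (0.0765). A two-sided exact permutation test of 3 against 3 gave p = 0.1, the smallest it can give. Leaving out any single library kept the difference between -1.89 and -1.43, while a pseudocount of 5 TPM in place of 1 took it to -0.96, under the fold threshold, and one of 0.1 TPM to -1.94. The summed gut tube mesenchyme markers given above were likewise lower in every mutant, and their part in the Lgr5 difference was not tested.

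Lgr4, the broadly expressed paralog, was at 22.9, 21.8 and 23.4 TPM in the controls against 19.96, 28.0 and 26.3 TPM in the mutants. These ranges overlapped, and the difference was 0.11 with a 95% interval from -0.37 to 0.59. Lgr5 made up 20.3%, 35.3% and 31.1% of summed LGR TPM in the controls against 8.97%, 6.58% and 10.3% in the mutants. This share is a ratio within a library and does not depend on how libraries are scaled. Lgr6 was at most 0.46 TPM in any library.

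**Figure D3:**
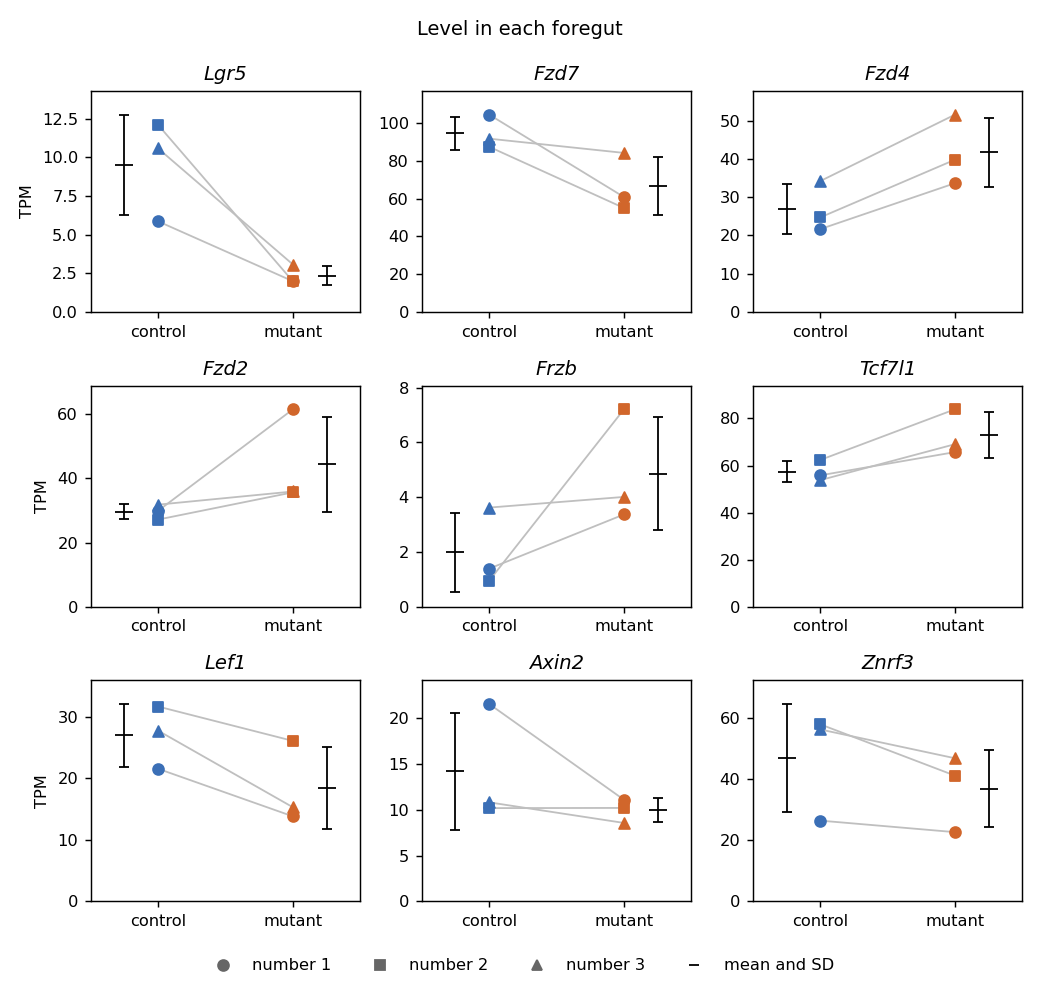
TPM of 9 Wnt genes in each foregut, control left and mutant right, with lines joining libraries of the same number and bars for mean ± SD (n = 3). Each vertical axis starts at 0. Lgr5 and Fzd7 have no overlap between genotypes, Fzd4 is higher in each same-numbered pair, and the high Fzd2 (61.5 TPM) and Axin2 (21.6 TPM) values belong to mutant 1 and control 1.

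Frizzled receptors, which bind Wnt ligands through a cysteine-rich domain, had estimates on both sides of 0, none of them called. Fzd7 (chromosome 1, 59482424 to 59486955) was at 104, 87.4 and 91.7 TPM in the controls against 60.8, 55 and 84.1 TPM in the mutants. The groups did not overlap, and mutant 3 lay just below the lowest control. The difference was -0.52 ± 0.22 (SE), or -0.63 relative to the median of all genes, with limma unadjusted p = 0.0474 and adjusted p = 0.999. Unadjusted p was under 0.05 in 14 of 20 alternatives, among them 1 of the 6 that left out a library. Fzd5, a receptor of endodermal epithelium, had a similar estimate (-0.60) with an interval from -1.65 to 0.44. It was at 30.3, 16.0 and 8.87 TPM in the controls against 8.62, 7.89 and 16.5 TPM in the mutants. Control 1 was the highest, the genotypes overlapped, and the difference was -0.18 without control 1. The exons of Fzd5 share 1233 bases with Gm38058 on the opposite strand, which these unstranded libraries cannot separate.

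Fzd4 (chromosome 7, 89404355 to 89413134), a receptor needed for blood vessel growth, pointed the other way. It was at 21.7, 24.7 and 34.2 TPM in the controls against 33.7, 39.8 and 51.6 TPM in the mutants. The ranges met at control 3 and mutant 1, while each mutant exceeded its same-numbered control, by 1.55, 1.61 and 1.51-fold. The difference was 0.62 ± 0.25 (SE), or 0.50 relative to the median of all genes, with limma unadjusted p = 0.0407 and adjusted p = 0.999 (0.221 with the block). Unadjusted p was under 0.05 in 13 of 20 alternatives, among them 2 of the 6 that left out a library. Summed endothelial markers were also higher in every mutant, and all 9 had a higher mean in mutants. Their part in the Fzd4 difference was not tested. Fzd2 was at 29.9, 27.2 and 31.8 TPM in the controls against 61.5, 35.7 and 35.9 TPM in the mutants. All mutants were above all controls, by a wide margin only in mutant 1, and the limma unadjusted p was 0.0759.

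The remaining Frizzleds overlapped between genotypes. Differences were 0.05 for Fzd1, -0.11 for Fzd3, -0.15 for Fzd6, 0.41 for Fzd8 and 0.37 for Fzd10, and all 5 intervals included 0. Summed over the 10 Frizzleds the level was 268 to 292 TPM in controls and 244 to 313 TPM in mutants, so the total overlapped. Fzd7 held 38.9%, 30.5% and 31.4% of the Frizzled total in the controls and 24.9%, 20.3% and 26.9% in the mutants. Fzd4 held 8.07%, 8.62% and 11.7% in the controls against 13.8%, 14.7% and 16.5% in the mutants. Neither share overlapped between genotypes, nor did that of Fzd2 (9.47% to 11.1% in the controls against 11.5% to 25.2% in the mutants). Shares of a common total depend on each other, so a lower Fzd7 share raises the others and these are not separate results. They were examined after the levels were seen and are given without a test.

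**Figure D4:**
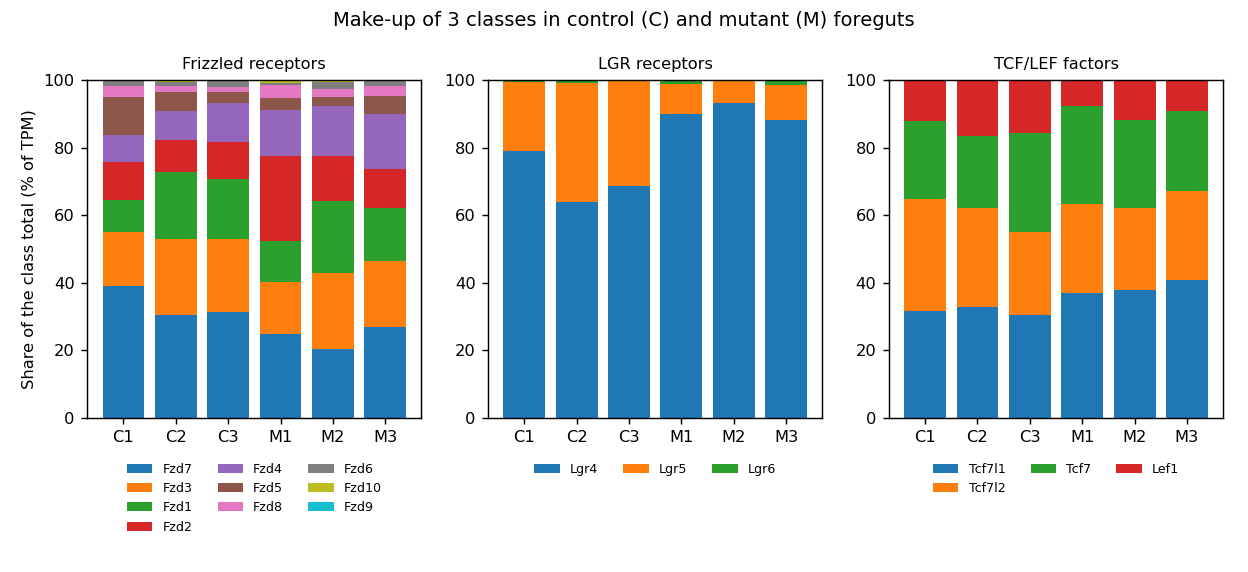
Share of summed TPM held by each Frizzled receptor, LGR receptor and TCF/LEF factor in control (C1 to C3) and mutant (M1 to M3) foreguts, as stacked bars that add up to 100%. In mutants Fzd7 (20.3% to 26.9%) and Lgr5 (6.58% to 10.3%) take smaller shares than in controls (30.5% to 38.9% and 20.3% to 35.3%), and Tcf7l1 a larger one (36.9% to 40.8% against 30.5% to 32.8%).

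No co-receptor or alternative receptor had an unadjusted p under 0.05 or groups without overlap. Lrp6 was at 51.0, 63.1 and 76.3 TPM in the controls against 41.9, 62.0 and 73.3 TPM in the mutants, a difference of -0.12 with an interval from -0.74 to 0.50. Lrp5 stood at 30.7 ± 3.9 TPM in controls against 35.3 ± 2.9 TPM in mutants (SD, n = 3), and pairs of means below follow that order. Ryk, a Wnt receptor with an inactive kinase domain, was at 26.3, 22.5 and 21.9 TPM in the controls against 26.1, 27.4 and 26.2 TPM in the mutants. Ror2, a receptor for Wnt5a, was at 7.94 ± 3.20 and 7.05 ± 0.40 TPM. Ror1 was near the filter, at 1.22 ± 1.01 and 1.67 ± 0.83 TPM. The interval of the difference was wide for Ror1 (-0.67 to 1.33) and narrower for Lrp5 (-0.25 to 0.65) and Ryk (-0.26 to 0.60).

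Secreted antagonists were led by Sfrp1 and Sfrp2, which bind Wnt ligands, and the class overlapped between genotypes. Sfrp1 was at 186, 291 and 162 TPM in the controls against 167, 254 and 324 TPM in the mutants, a difference of 0.21 with an interval from -0.53 to 0.96. Sfrp2 was at 39.3, 51.7 and 48.96 TPM in the controls against 30.9, 109 and 29.2 TPM in the mutants, highest in mutant 2 and lowest in the other 2 mutants. Summed neural tube markers (8 genes) were also highest in that library, 49.8 TPM against 1.08 to 7.51 TPM in the other 5, and their part in the Sfrp2 level was not tested. The exons of Sfrp2 share 347 bases with Gm26771 on the opposite strand. Frzb (chromosome 2, 80411970 to 80447625), also called secreted Frizzled-related protein 3, had the largest estimate among antagonists. It was at 1.39, 0.95 and 3.62 TPM in the controls against 3.37, 7.21 and 4.01 TPM in the mutants. Control 3 lay above mutant 1, so the genotypes overlapped. The difference was 1.02 ± 0.41 (SE), or 0.91 relative to the median of all genes, with limma unadjusted p = 0.0395 and adjusted p = 0.999, and the unadjusted p was under 0.05 in 12 of 19 alternatives, among them 2 of the 6 that left out a library.

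Dkk1, which blocks LRP co-receptors and is a Wnt target, was at 1.18, 2.13 and 2.81 TPM in the controls against 0.54, 6.95 and 2.48 TPM in the mutants. Its highest value was again mutant 2, and the interval of the difference ran from -1.10 to 1.57. Dkk3 was at 11.4 ± 1.8 and 12.5 ± 4.6 TPM. Sfrp5, an antagonist of foregut endoderm, was at 17.7, 3.46 and 1.00 TPM in the controls against 7.72, 2.28 and 2.99 TPM in the mutants. Both 19-somite libraries were the highest of their genotype. Dkk2 had a mean just below the filter (0.947 TPM), Sfrp4 was at most 1.21 TPM, and Wif1 and Notum were at most 0.27 and 0.49 TPM in any library. No fold is given for these.

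Feedback genes are induced by beta-catenin and dampen the pathway, and are commonly read as a measure of its activity. Of the 5, 4 had a lower and 1 a higher mean log2 level in mutants, with a median log2 fold change of -0.32 beside 0.11 over all genes, and none passed an unadjusted p under 0.05 without the block. Axin2 (chromosome 11, 108920349 to 108950783), a scaffold of the destruction complex, was at 21.6, 10.19 and 10.8 TPM in the controls against 11.1, 10.21 and 8.57 TPM in the mutants. Control 1 was the highest, and the remaining libraries overlapped. The difference was -0.40 with an interval from -1.12 to 0.32 (limma adjusted p = 0.999), and -0.08 without control 1. After median-of-ratios scaling Axin2 was at 22.0, 11.7 and 10.5 TPM in the controls against 10.4, 9.6 and 8.14 TPM in the mutants, and the groups then narrowly failed to overlap, whereas those of Tcf7l1 did overlap. Gm11670 on the opposite strand shares 209 exonic bases with Axin2.

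Znrf3 (chromosome 11, 5276324 to 5444847), a ubiquitin ligase that removes Frizzleds from the membrane, was at 26.4, 57.8 and 56.2 TPM in the controls against 22.6, 41.1 and 46.7 TPM in the mutants. Each mutant was below its same-numbered control, at ratios of 0.857, 0.71 and 0.832. The limma unadjusted p was 0.429, or 0.0428 with the replicate block (adjusted p = 0.497). Its partner Rnf43 was at 3.37, 5.44 and 4.70 TPM in the controls against 2.44, 2.4 and 5.05 TPM in the mutants. Mutant 3 was within the control range, and the interval was -1.15 to 0.37. Nkd1, which binds Dishevelled, had the opposite order, at 4.04, 3.14 and 2.60 TPM in the controls against 6.39, 6.32 and 3.14 TPM in the mutants, with an interval from -0.22 to 1.27. Nkd2 was at 5.63 ± 1.00 and 5.84 ± 3.20 TPM. The feedback genes thus did not share a direction in these libraries.

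Among TCF/LEF factors the activator Lef1 and the factor Tcf7l1, which acts mainly as a repressor, stood in opposite order. Lef1 (chromosome 3, 131110471 to 131224356) was at 21.6, 31.7 and 27.8 TPM in the controls against 13.8, 26.1 and 15.3 TPM in the mutants. Only mutant 2 lay within the control range, and the same-numbered ratios were 0.641, 0.824 and 0.551. The difference was -0.57 ± 0.29 (SE), or -0.68 relative to the median of all genes, with limma unadjusted p = 0.0851, or 0.012 with the block (adjusted p = 0.384). The exons of Lef1 share 1208 bases with Gm43352 on the opposite strand. Tcf7l1 (chromosome 6, 72626378 to 72789254) was at 55.8, 62.4 and 53.8 TPM in the controls against 65.7, 83.9 and 69.1 TPM in the mutants. All mutants were above all controls, by 1.18, 1.35 and 1.28-fold within numbers. The difference was 0.34 ± 0.19 (SE), or 0.22 relative to the median of all genes, with limma unadjusted p = 0.116, or 0.0232 with the block (adjusted p = 0.45). Gm15401 on the opposite strand shares 179 exonic bases with Tcf7l1.

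Tcf7 (40.5 to 51.5 against 40.6 to 57.8 TPM) and Tcf7l2 (43.4 to 58.7 against 44.3 to 53.4 TPM) overlapped between genotypes. Summed TCF/LEF levels were 176 to 190 TPM in controls and 169 to 221 TPM in mutants. Within that sum Lef1 held 12.2%, 16.6% and 15.7% in the controls against 7.76%, 11.8% and 9.04% in the mutants. Tcf7l1 held 31.5%, 32.8% and 30.5% in the controls against 36.9%, 37.9% and 40.8% in the mutants. Neither share overlapped between genotypes, though for Lef1 control 1 (12.2%) and mutant 2 (11.8%) nearly met. As for the Frizzleds, the shares depend on each other and were examined after the levels had been seen.

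Beta-catenin and its destruction complex overlapped throughout. Ctnnb1 was at 1040, 465 and 781 TPM in the controls against 946, 542 and 925 TPM in the mutants, a difference of 0.11 with an interval from -0.75 to 0.96. Gsk3b, the kinase that marks beta-catenin for degradation, stood at 140 ± 19 and 140 ± 25 TPM. Apc was at 29.5, 81.7 and 69.0 TPM in the controls against 31.5, 74.8 and 78.9 TPM in the mutants. Axin1 was at 12.4 ± 1.3 and 15.1 ± 4.3 TPM. Apc was thus low in the libraries numbered 1 of both genotypes. The exons of Ctnnb1 share 759 bases with Ulk4 on the opposite strand. RNA levels of these genes do not report the amount or activity of the proteins.

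Values of Apc, Fzd1, Znrf3 and Ctnnb1 divided by library number more than by genotype. Both 19-somite libraries lay outside the range of the other 4 for 13 of the 35 genes (9 below and 4 above), where 43.5% of all genes tested did so (20.4% below and 23.1% above). Fzd1, for example, was at 25.8 and 29.5 TPM in control 1 and mutant 1 and at 49.5 to 58.0 TPM in the others. The 9 that were low had a median longest transcript of 6311 bases, against 4197 over the 35 genes and 3387 over all genes tested with a GENCODE length. Over those 12626 genes, the rank correlation of length with the difference between the 19-somite and the other libraries was -0.44, a description across genes that are not independent. The part of length, of stage and of library in these values was not tested, and stage and number cannot be told apart for them. Fzd4 and Lef1 are not among the 13, although the library numbered 1 was the lowest of its genotype for both. Lgr5, Fzd7, Fzd2 and Tcf7l1 could not be among them. Where genotypes do not overlap, control 1 and mutant 1 lie on opposite sides of the gap. Their absence from the 13 thus does not bear on stage, length or library.

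Ligands and other components of the pathway were counted in the same fit. Of 99 further names listed, 94 were in the table and 73 genes were tested, of which 5 were lower and 4 higher at an unadjusted p under 0.05, and 1 was called (lower), beside the shares of all genes given above (1.01% lower, 3.07% higher and 0.0411% called). That gene is Wnt4, at 15.6, 17.0 and 16.5 TPM in the controls against 3.77, 3.27 and 2.51 TPM in the mutants (limma adjusted p = 0.0642). Wnt4, a ligand needed for kidney development, was called in 12 of 20 alternatives. With a library left out its adjusted p ran from 0.0953 (without mutant 1) to 0.475 (without control 3), and it was called only without mutant 1. Of the 3 R-spondins tested, the ligands of LGR receptors, 2 had every mutant below every control, as had 1.68% of all genes. Rspo2 was at 3.61, 7.90 and 5.16 TPM in the controls against 0.46, 1.80 and 1.05 TPM in the mutants (limma adjusted p = 0.552). Rspo1 was at 56.3, 77.6 and 78.4 TPM in the controls against 54.1, 29.2 and 39.6 TPM in the mutants (limma adjusted p = 0.999), with mutant 1 close to control 1. Rspo3 overlapped between genotypes.

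Other target genes did not share a direction, and none was called. Of 11 tested, 2 were lower (Tnfrsf19 and Msx1) and 2 higher (Twist1 and Myc) at an unadjusted p under 0.05, where the shares of all genes were 1.01% and 3.07%. Groups did not overlap for 5, those 4 and Ccnd1, which was lower, where 8.36% of all genes did not overlap. Tnfrsf19, a receptor of the tumor necrosis factor family, was at 29.9, 23.9 and 31.7 TPM in the controls against 11.3, 12.95 and 9.07 TPM in the mutants (log2 fold change -1.29, limma adjusted p = 0.257). Msx1, a homeobox factor, stood at 2.28 ± 0.74 and 0.717 ± 0.476 TPM. Twist1, a factor of mesenchyme and neural crest, was at 4.82, 4.06 and 6.98 TPM in the controls against 29.3, 15.4 and 13.5 TPM in the mutants (log2 fold change 1.64, limma adjusted p = 0.418). Myc, a growth regulator, was at 19.8, 57.8 and 42.8 TPM in the controls against 58.98, 108 and 61.7 TPM in the mutants (limma adjusted p = 0.999, or 0.241 with the block), with mutant 1 just above control 2. Ccnd1, a cyclin of the cell cycle, was at 142, 133 and 137 TPM in the controls against 99.6, 107 and 123 TPM in the mutants (limma adjusted p = 0.999). Values of Myc and Ccnd1 were added after they were seen. Of 14 cytoplasmic transducers such as the Dishevelled genes, 0 reached that unadjusted p in limma with or without the block, and of 15 planar cell polarity genes tested 0 did without it and 1 with it, Prickle3. The antagonist Sost (1.18 ± 0.15 and 3.11 ± 0.27 TPM) and the glypican Gpc4, a cell surface proteoglycan (3.41 ± 0.90 and 9.08 ± 2.73 TPM), were higher in every mutant without being called (limma adjusted p = 0.863 and 0.691).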

How the data were processed

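Per the labels, polyadenylated RNA of each foregut was amplified with a SMART-Seq low input kit and made into a Nextera XT library, neither of which marks strand. The authors aligned reads to mm10 in the CSBB pipeline and deposited TPM for 22564 features, about 1000000 per library. Names of the aligner, quantifier and annotation were not given in the sources used here. TPM keeps no depth, hence no counting intervals. The study's RUVSeq test needs counts, so limma version 3.58.1 in R version 4.3.3 was run on log2(TPM + 1), with a mean-variance trend, two-sided, for genes whose mean reached 1 TPM, after the script was tested on simulated data. Thresholds follow the methods of the study. Members, gene lists and tests were chosen with earlier results of these data known. Genes given library by library were those with an unadjusted p under 0.05, no overlap or a call, and the most abundant of each class. Library values of other genes were added after they were seen. Locations and lengths are from GENCODE vM21. The exact names were matched, and list names without a row were not analysed here.

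Labels give both groups the numbers 1, 2 and 3. Deviations from group means correlated at 0.668, 0.37 and 0.148 between same-numbered libraries, all over 0.1, so the numbers were taken to pair samples, from these correlations alone since no label states what a number marks. Control 3 with mutant 2 (0.245) and control 2 with mutant 3 (0.243) correlated more than the pair numbered 3, so numbers 2 and 3 are not told apart by this check, and results with the block rest on that pairing. Sample titles share the number before the point only for the libraries numbered 1, and what the titles mark is not stated. Both libraries numbered 1 share 19 somites and lie apart from the rest. Alternatives were other pseudocounts (0.1 and 5), filters (none, or 5 TPM), scalings, a somite covariate, the replicate block, a factor of unwanted variation, array weights, robust shrinkage and left-out libraries.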

Additional observations from a re-analysis of the deposited data

How the results depend on the processing

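The count of Wnt genes called was 0 as reported and 0 in 19 of 21 alternatives, and 1 (Lgr5) with the replicate block after rescaling to features with a gene symbol and with 1 factor of unwanted variation. The replicate block alone left it at 0. Genes at an unadjusted p under 0.05, 4 as reported, numbered 8 with the replicate block, 7 with both block and rescaling, 7 with the factor of unwanted variation, 2 with rescaling alone and 2 without both libraries numbered 1. Leaving out each library in turn gave from 1 to 3, with 1 without control 1 and 1 without control 2, and medians over the Wnt genes from -0.06 to 0.16. That median, 0.05 as reported, was -0.088 with median-of-ratios scaling and -0.099 with rescaling, with or without the block. Genes without overlap between groups numbered 4 under both rescalings tried, with Axin2 in place of Tcf7l1. Of 691 values of the 35 Wnt genes under alternatives, 689 stayed uncalled and 2, both for Lgr5, gained a call. As no gene was called to begin with, this count does not show how stable the estimates were. Lgr5 had the same direction in 20 of 20, as did Fzd2, Fzd4, Fzd7, Lef1 and Tcf7l1. Ctnnb1 kept its direction in 11 of 20, Fzd1 in 12, and Apc and Sfrp2 in 13 each. Groups of 3 are too small for a check of single outlying samples. TPM keeps no depth, and its limits on low genes could not be assessed.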
